A study of Drosophila melanogaster with 10 samples.

Results

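The ImpE and ImpL genes of Drosophila melanogaster are 5 protein-coding genes, ImpE1, ImpE2, ImpE3, ImpL1 and ImpL2, whose products are secreted or sit at the cell surface. They were selected by gene symbol, without use of their measured values, from the 14210 genes listed for RNA of sorted neuroblasts, the dividing stem cells from which the neurons of the central brain arise. In med27 RNAi pupae, a UAS-driven hairpin against med27 (VDRC TID 106703) was expressed together with UAS-CD8::GFP, a membrane-bound fluorescent marker, under inscuteable-Gal4. The wild-type pupae and the wild-type larvae carried the same driver and marker with VIE-260B, a landing site left empty (VDRC TID 60100), in place of the hairpin, so that all 3 groups share the driver, the marker and the temperature. Eggs were laid over 24 h and animals were then kept at 29 °C. Pupal brains were dissected after 6 days, 0 to 2 h after the pupa formed, and larval brains after 5 days, late in the third instar. Large cells with high GFP were sorted, which means that the driver and the size gate decide which cells were profiled. The driver, and not the gate, decides in which cells the hairpin was active. There were 2 replicates in each group, and each pupal replicate was sequenced in 2 technical runs, which were averaged. The labels do not say that replicates came from separate cultures, so the p-values measure only the spread between these samples, which may be technical.

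Ecdysone is the steroid hormone that drives molting and metamorphosis. Its active form binds a receptor made of EcR and Usp, which switches on early genes encoding transcription factors, and these in turn control later effector genes. The Imp genes were isolated from imaginal discs, the larval precursors of the adult appendages, as hormone-inducible messages translated on membrane-bound polysomes. The ImpE transcripts accumulate early after hormone is added to discs, and the ImpL transcripts late. ImpE1 encodes a protein with low-density lipoprotein receptor repeats, and ImpE2 an apical extracellular protein of disc cells. ImpL2 encodes a secreted immunoglobulin-domain protein that binds insulin-like peptides and restrains insulin signalling.

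Expression was measured as FPKM, the fragments of a gene scaled to its transcript length and to the depth of the run, so that levels may be compared between genes. Each run held 18.7 to 31.2 M fragments, as implied by the confidence bounds in the tables, with 6806 to 7087 genes at 1 FPKM or more. The larval runs held 18.9 and 18.7 M, 1 run a replicate, and the pupal runs 27.3 to 31.2 M, 2 runs a replicate. Depth thus differed between the stages, and its part in the stage differences was not tested. MED27, the targeted gene and a subunit of the Mediator complex, stood at 5.33 and 3.99 FPKM in med27 RNAi pupae, against 31.5 and 27.4 FPKM in wild-type pupae, and 31.7 and 38.3 FPKM in wild-type larvae. Neuroblast markers summed to 1756 to 1781 FPKM in med27 RNAi pupae, 1996 to 2058 in wild-type pupae and 1507 to 1606 in wild-type larvae, and all 10 passed the filter on low values, a mean of at least 1 FPKM. Of these 10, 5 rose in wild-type pupae against larvae and 3 fell in med27 RNAi against wild-type pupae. By the same test, described below, 22.7% of all tested genes rose between the stages and 8.64% fell in the knockdown. The count of 3 was 1 when either RNAi replicate or wild-type pupal replicate 2 was left out, 4 when either larval replicate was and 6 under quantile normalization. With the length trend removed, 4 were higher and 1 lower in wild-type pupae against larvae, with a median of 0.27 in place of 0.63. The wild-type pupal replicates also differed from each other. Replicate 1 was the higher in ImpL3 (102 against 8.23 FPKM) and replicate 2 the higher in 8 neuron markers (a sum of 95.7 against 53.5 FPKM).

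All 5 genes were expressed at low to moderate levels. In wild-type pupae the order of mean FPKM was ImpE2, ImpL2, ImpL1, ImpE1 and ImpE3, from 19.2 ± 1.82 down to 3.21 ± 0.927 FPKM (SD, n = 2), and 44.1% of the 6992 genes kept for testing had a lower mean than ImpE2 and 10.7% a lower mean than ImpE3. The replicate ranges of ImpL1, ImpE1 and ImpE3 overlapped, whereas those of ImpE2 and ImpL2 lay apart from each other and from the rest. In med27 RNAi pupae the order was the same, with ImpE2 and ImpL2 again separate at the top and the ImpE1 range overlapping those of both ImpL1 and ImpE3. In wild-type larvae ImpL2 and ImpE2 shared the first place at 6.25 ± 0.527 and 6.07 ± 2.21 FPKM (SD, n = 2), with overlapping ranges. ImpE1 was the lowest of the 5 there at 0.647 FPKM, a level above that of 1.9% of kept genes, and its range overlapped that of ImpE3.

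**Figure D1:**
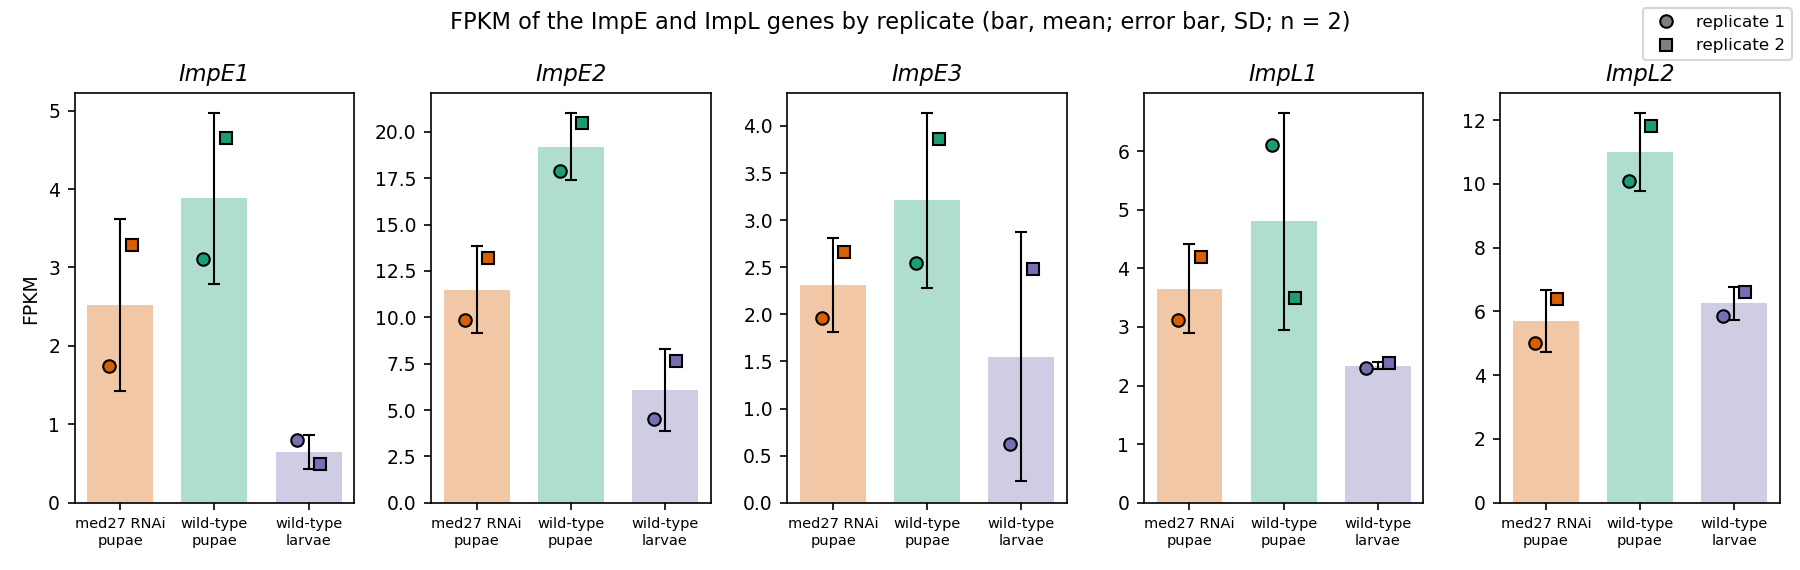
FPKM of each gene in every replicate, with a panel and a linear axis per gene. Bars are the mean of 2 replicates, error bars the SD, circles replicate 1 and squares replicate 2. The bar of wild-type pupae is the highest of the 3 for every gene, and wild-type larvae have the lowest bar except for ImpL2, where med27 RNAi pupae do.

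Wild-type pupae against wild-type larvae shows how the genes changed in neuroblasts between the last larval stage and the start of metamorphosis. ImpE1, ImpE2, ImpL1 and ImpL2 rose in pupae and ImpE3 did not pass the test, and in all 5 genes both pupal replicates lay above both larval ones. The test was limma on log2(FPKM + 1) with an adjusted p-value under 0.05. By it 22.7% of the 6992 tested genes rose and 26.5% fell, 49.2% in all. Both replicates were higher without overlap in 33.8% of tested genes and lower in 43.3%. The median of the 5 log2 fold changes was 0.81, against -0.07 over all genes tested.

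Among the early genes, ImpE1 stood at 3.11 and 4.65 FPKM in wild-type pupae, against 0.804 and 0.49 FPKM in wild-type larvae. Both pupal values were several times the larval ones, with a ratio of means of 5.99. As log2(FPKM + 1), where the added 1 shrinks differences between low values, the difference was 1.55 ± 0.28 (SE, limma adjusted p = 0.00452, 95% interval 0.90 to 2.21). The larval mean of 0.647 FPKM was under the filter of 1 FPKM, so ImpE1 was tested only because of its pupal values. Its rise against larvae is therefore not independent of the filter. With no filter the difference was 1.55 (limma adjusted p = 0.0239). The size depended on the pseudocount, with 2.42 at a pseudocount of 0.1 and 0.65 at 5. ImpE1 has the longest transcripts of the set, a median of 6043 nucleotides, and when a trend of expression over transcript length was removed from each replicate its difference was 0.95 (limma adjusted p = 0.0252). In the authors' deposited table of this comparison, ImpE1 had a base mean of 727.2 in wild-type pupae and 153 in wild-type larvae, a fold change of 4.75 with an adjusted p of 3.77e-16.

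ImpE2, the apical protein gene, stood at 17.9 and 20.5 FPKM in wild-type pupae, against 4.52 and 7.63 FPKM in wild-type larvae. The groups lay far apart, with a ratio of means of 3.16. It rose by 1.55 ± 0.22 on the log2(FPKM + 1) scale (limma adjusted p = 0.00244). As a gene with 1 annotated transcript, ImpE2 allows the fragments behind each value to be read from the confidence bounds, about 1000 to 1175 per run in wild-type pupae and 159 and 265 in wild-type larvae. The authors' deposited table gave it base means of 984.9 in wild-type pupae and 304 in wild-type larvae, a fold change of 3.24 and an adjusted p of 4.21e-12.

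ImpE3 stood at 2.55 and 3.86 FPKM in wild-type pupae, against 0.623 and 2.48 FPKM in wild-type larvae. The lower pupal value and the higher larval value were close, and larval replicate 1 stood below the other 3 values. The difference of 0.81 ± 0.36 on the log2(FPKM + 1) scale did not pass the test (limma adjusted p = 0.101, 95% interval -0.04 to 1.66). It was 1.36 without larval replicate 2 (adjusted p = 0.0204) and 0.25 without larval replicate 1 (adjusted p = 0.462), and roughly 15 fragments, inferred for a gene with 2 transcripts and therefore not exact, stood behind the lower larval value. ImpE3 was absent from the authors' deposited table, which lists genes with an adjusted p of up to 0.01.

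Of the late genes, ImpL1 stood at 6.11 and 3.49 FPKM in wild-type pupae, against 2.3 and 2.38 FPKM in wild-type larvae. The larval replicates were nearly equal, and pupal replicate 1 was well above pupal replicate 2. The technical runs of pupal replicate 1, at 5.53 and 6.7 FPKM, differed by more than those of 92.2% of genes of like level. ImpL1 rose by 0.76 ± 0.24 on the log2(FPKM + 1) scale (limma adjusted p = 0.0347). It passed in 10 of 16 alternatives. The call was lost with no filter and under the replicate block, and also without pupal replicate 1 (0.43, adjusted p = 0.145), without larval replicate 1 (0.74, adjusted p = 0.1), without larval replicate 2 (0.78, adjusted p = 0.109) and under quantile normalization (0.59, adjusted p = 0.104), and the authors' deposited table does not list the gene.

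ImpL2, the insulin-binding protein gene, stood at 10.1 and 11.8 FPKM in wild-type pupae, against 5.87 and 6.62 FPKM in wild-type larvae. The replicates within each stage were close and the stages did not overlap, with a ratio of means of 1.76. Its difference was 0.72 ± 0.15 on the log2(FPKM + 1) scale (limma adjusted p = 0.00745). In the authors' deposited table ImpL2 had a base mean of 645.4 in wild-type pupae and 335.1 in wild-type larvae, a fold change of 1.93 and an adjusted p of 0.00113.

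**Figure D2:**
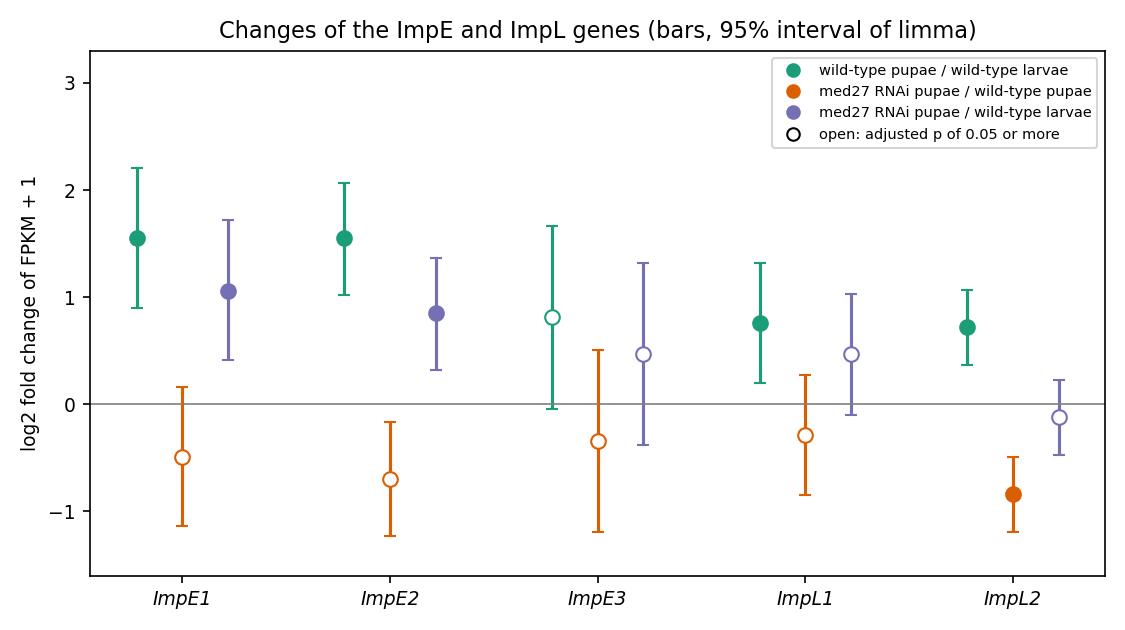
Log2 fold change of FPKM + 1 for each gene in the 3 comparisons, with 95% limma intervals. Filled circles have an adjusted p under 0.05. All 5 wild-type pupal against larval values lie between 0.72 and 1.55, and all 5 med27 RNAi against wild-type pupal values lie between -0.84 and -0.29, with ImpL2 the filled circle of that comparison.

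Set among all tested genes, the stage differences of ImpE1 and ImpE2 were larger than those of 99.2% and 99.1% of genes, as a signed log2 fold change. The rank of ImpE1 is subject to the limit of the filter given above. Those of ImpE3, ImpL1 and ImpL2 exceeded 91.6%, 90.3% and 89.6% of genes. In bulk RNA of a sorted population, a change in the share of cells that express a gene and a change in RNA per cell cannot be told apart.

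**Figure D3:**
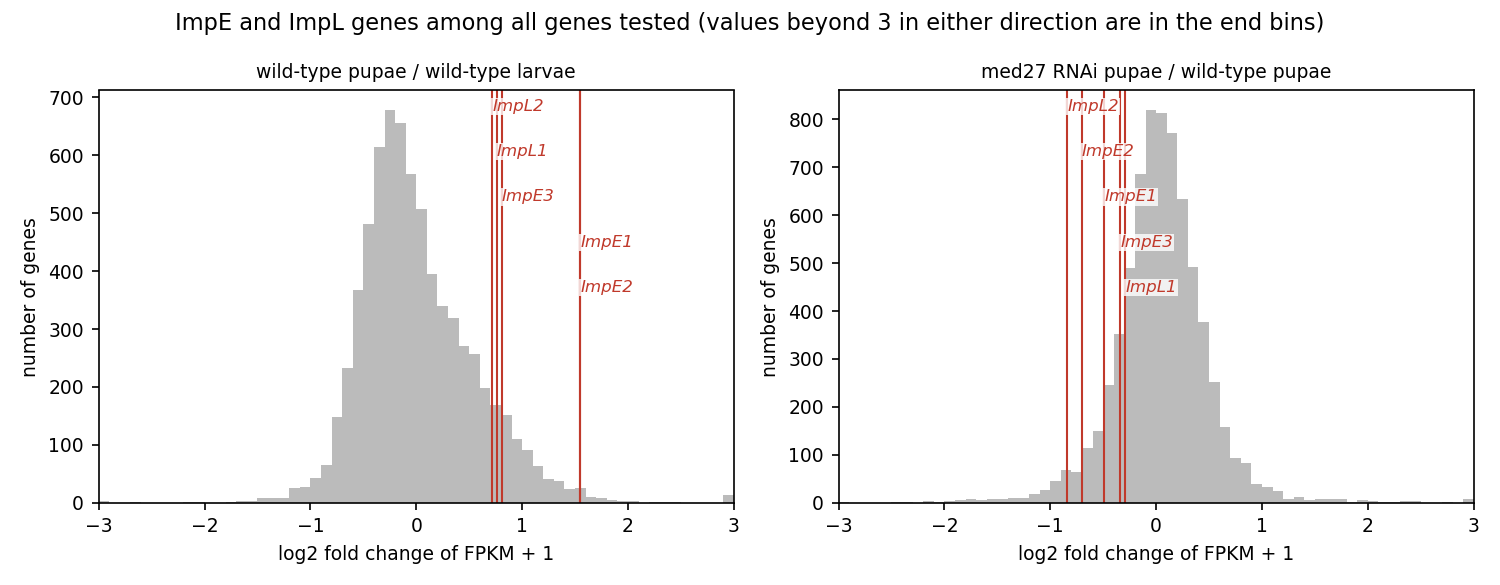
Distribution of log2 fold changes of FPKM + 1 over the 6992 tested genes, in bins of equal width, for wild-type pupae over wild-type larvae on the left and med27 RNAi pupae over wild-type pupae on the right. Red lines mark the 5 genes, which lie to the right of the main peak on the left panel, from 0.72 to 1.55, and to the left of it on the right panel, from -0.84 to -0.29.

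The pupal groups show how the genes differed at the same age when this Mediator subunit was depleted. ImpL2 fell in med27 RNAi pupae and the other 4 genes did not pass the test, although all 5 differences were below 0. In ImpE2 and ImpL2 both RNAi replicates lay below both wild-type ones, and in the other 3 genes the groups overlapped. Among all tested genes 8.64% fell by the same limma test and 19.6% rose, 28.3% in all. Both replicates were lower without overlap in 28.7% of tested genes and higher in 42.7%. The median log2 fold change of the 5 genes was -0.49, against 0.05 over all genes tested, and 2 of the 5 had an unadjusted p under 0.05. The wild-type pupae of this comparison are the same samples as in the comparison of stages, so the differences in the 2 comparisons are not independent.

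ImpL2 stood at 5.01 and 6.4 FPKM in med27 RNAi pupae, against 10.1 and 11.8 FPKM in wild-type pupae. Both knockdown values were well below those of wild-type pupae and near the larval ones, with a mean of 5.7 against 6.25 FPKM in larvae. The difference was -0.84 ± 0.15 on the log2(FPKM + 1) scale (SE, limma adjusted p = 0.0071, 95% interval -1.19 to -0.49), and 2.73% of tested genes had a lower one. In the authors' deposited table, whose fold change runs as wild-type pupae over med27 RNAi pupae, ImpL2 had base means of 554.6 in med27 RNAi pupae and 1165 in wild-type pupae, a fold change of 2.1 and an adjusted p of 1.21e-05. Base means of wild-type pupae differ between the authors' deposited tables and are set side by side only within a table, since which technical runs entered each is not given in the sources read.

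ImpE2 stood at 9.86 and 13.2 FPKM in med27 RNAi pupae, against 17.9 and 20.5 FPKM in wild-type pupae. The groups did not overlap, and the knockdown values fell between those of wild-type pupae and wild-type larvae. Its difference of -0.70 ± 0.22 on the log2(FPKM + 1) scale did not pass the threshold (limma adjusted p = 0.0548, 95% interval -1.23 to -0.17). It passed in 8 of 17 alternatives, among them the fit of the 2 pupal groups alone (adjusted p = 0.0221) and the fits without larval replicate 1 (0.0213) or larval replicate 2 (0.0219). The technical runs of each replicate agree within 0.02 log2 units for this gene. The authors' deposited table lists ImpE2 with base means of 1031 in med27 RNAi pupae and 1777 in wild-type pupae, a fold change of wild type over RNAi of 1.72 and an adjusted p of 9.09e-05.

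ImpE1 stood at 1.74 and 3.29 FPKM in med27 RNAi pupae, against 3.11 and 4.65 FPKM in wild-type pupae. The higher knockdown value was above the lower wild-type one, and the technical runs of RNAi replicate 1 differed, at 1.98 and 1.5 FPKM, by more than those of 92.3% of genes of like level. The difference of -0.49 ± 0.28 on the log2(FPKM + 1) scale did not pass the test (limma adjusted p = 0.227, 95% interval -1.14 to 0.16). For ImpE3 the values were 1.96 and 2.66 FPKM in med27 RNAi pupae, against 2.55 and 3.86 FPKM in wild-type pupae. The groups overlapped slightly, with a difference of -0.34 ± 0.36 (limma adjusted p = 0.519, 95% interval -1.19 to 0.51). ImpL1 stood at 3.11 and 4.19 FPKM in med27 RNAi pupae, against 6.11 and 3.49 FPKM in wild-type pupae. Both RNAi values lay close to the lower wild-type one, the difference was -0.29 ± 0.24 (limma adjusted p = 0.397, 95% interval -0.85 to 0.27), and it was 0.04 without wild-type pupal replicate 1. None of these 3 genes is in the authors' deposited table of the knockdown.

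**Figure D4:**
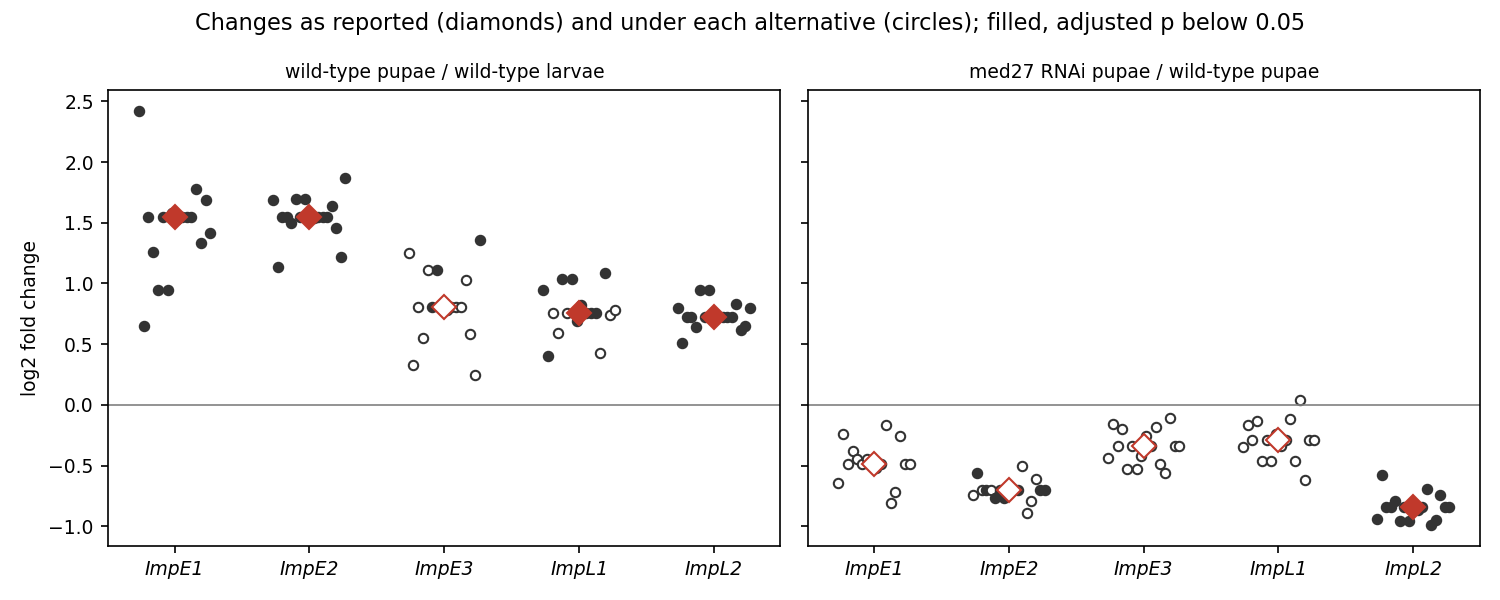
Log2 fold changes of the 5 genes as reported (diamonds) and under each processing alternative (circles), for wild-type pupae over wild-type larvae on the left and med27 RNAi pupae over wild-type pupae on the right. Filled symbols have an adjusted p under 0.05. ImpE1, ImpE2 and ImpL2 on the left and ImpL2 on the right are filled in every setting shown, ImpE2 on the right in 8 of 17, and ImpL1 on the right crosses 0 once, at 0.04.

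Med27 RNAi pupae against wild-type larvae places the knockdown relative to the earlier stage. ImpE1 and ImpE2 were higher in med27 RNAi pupae than in larvae, and ImpE3, ImpL1 and ImpL2 did not pass the test. For ImpE1 the limit of the filter applies here too. Of all tested genes 27.8% rose by this test and 19.5% fell, 47.4% in all. In ImpE1, ImpE2 and ImpL1 both RNAi replicates were higher without overlap, as in 43.4% of tested genes, and 34.2% were lower without overlap. The ratio of mean FPKM was 3.89 for ImpE1 and 1.90 for ImpE2, and on the log2(FPKM + 1) scale the differences were 1.06 ± 0.28 (limma adjusted p = 0.0174) and 0.85 ± 0.22 (limma adjusted p = 0.0183). The ImpE1 call was lost without RNAi replicate 2 (0.74, adjusted p = 0.129), without larval replicate 2 (0.93, adjusted p = 0.0838) with the length trend removed (0.50, adjusted p = 0.128) and with no filter (adjusted p = 0.0551). The ImpE2 call was lost with no filter, without RNAi replicate 2 (0.65, adjusted p = 0.111) and without larval replicate 1 (0.53, adjusted p = 0.0654). ImpL2 differed from larvae by -0.12 ± 0.15 (limma adjusted p = 0.536, 95% interval -0.47 to 0.23), with overlapping groups. For ImpE3 and ImpL1 the difference was 0.47 each, with adjusted p-values from limma of 0.317 and 0.147. The ImpE3 call appeared without larval replicate 2 (1.02, adjusted p = 0.0386).

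Other genes of the ecdysone pathway were measured beside the Imp genes. Over all tested genes, 22.7% rose and 26.5% fell in wild-type pupae against larvae. In med27 RNAi pupae 19.6% rose and 8.64% fell against wild-type pupae, and 27.8% rose and 19.5% fell against larvae. Counts in this list and in those that follow are to be read beside these shares. The receptor genes EcR and usp were expressed in all samples and neither passed the test in the stage comparison, with a log2 fold change of -0.25 for EcR (limma adjusted p = 0.186) and 0.07 for usp (0.561). EcR was called lower in wild-type pupae, at -0.75, when the length trend was removed (adjusted p = 0.00674). Of 12 ecdysone-induced transcription factors 8 passed the filter on low values, and 7 of these rose in wild-type pupae and none fell, with a median of 0.92. Hr4, a nuclear receptor, stood at 27.8 and 30.6 FPKM in wild-type pupae, against 2.44 and 2.57 FPKM in wild-type larvae, and rose by 3.11 (limma adjusted p = 9.14e-05). Eip75B, a heme-binding nuclear receptor, rose by 1.74, the zinc finger gene crol by 1.15 and the Broad gene br by 0.97, with limma adjusted p-values of 0.00157, 0.00131 and 0.00548. With the length trend removed, 4 of the 8 rose and the median was 0.37.

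In med27 RNAi pupae, 2 of the 8 transcription factors fell and none rose against wild-type pupae, with a median of -0.39. The fall was 0.65 for ftz-f1, a competence factor for later hormone pulses (limma adjusted p = 0.0302), and 0.53 for the nuclear receptor gene Hr78 (limma adjusted p = 0.0482). Next in order of adjusted p were crol at -0.33 (limma adjusted p = 0.0555) and Hr39 at -0.31 (limma adjusted p = 0.0813), neither called. The count of 2 was 0 without either RNAi replicate or without wild-type pupal replicate 2, and 1 if wild-type pupal replicate 1 was left out. The count was 3 under quantile normalization and 3 with the length trend removed, with crol and ftz-f1 among them in both. Under quantile normalization Hr78 was not called (-0.39, limma adjusted p = 0.0971). EcR differed by -0.13 (limma adjusted p = 0.532) and usp by -0.25 (0.0919). In med27 RNAi pupae against wild-type larvae, 3 of the 8 transcription factors rose and 1 fell. These counts became 5 and 0 without larval replicate 1, and 3 and 2 with the length trend removed, where the median was 0.02 in place of 0.45.

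A list of 19 other hormone-induced effector genes was drawn up by name alone (Eip, Edg or Eig at the start), not by the time of their induction. Of these, 9 passed the filter, and 7 of the 9 rose in wild-type pupae. Those 7 were Eip63E and 6 Eig71E genes. Eip63E, a cyclin-dependent kinase gene and a neighbour of ImpE2, rose by 0.59 (limma adjusted p = 0.00553). The 6 Eig71E genes were listed at 0 in both larval libraries, so no ratio of FPKM to larvae can be formed. They passed the filter through pupal values alone. The direction of their change from larvae was therefore fixed in advance, and their calls are no support for a rise. None of the 9 fell in the fit reported here. Under quantile normalization 1 was called lower, and calls of lower also appeared when either RNAi replicate was left out of the shared fit. Eig71Eg stood at 1.8 and 2.63 FPKM in med27 RNAi pupae, against 20.5 and 5.24 FPKM in wild-type pupae, and fell by 1.86 (limma adjusted p = 0.0319). Eig71Ef stood at 1.09 and 1.76 FPKM in med27 RNAi pupae, against 17.5 and 3.9 FPKM in wild-type pupae, and fell by 1.99 (limma adjusted p = 0.0325). Eig71Ef passed the filter through its wild-type pupal values, so its fall is not independent of the filter. No other of the 9 passed the test in the knockdown. Under quantile normalization the limma adjusted p-values of Eig71Eg and Eig71Ef were 0.0538 and 0.0539, and Eip55E was called lower (-0.70). With the length trend removed 3 were lower, Eig71Eg, Eig71Ef and Eip71CD (-0.73, limma adjusted p = 0.0267). The count of 2 was 0 when RNAi replicate 2 or either larval replicate was left out, and 5 when wild-type pupal replicate 2 was. As with ImpL1, wild-type pupal replicate 1 was the higher one. Against wild-type larvae, 6 of the 9 rose in med27 RNAi pupae and 2 fell. Those that rose were Eip63E and Eig71E genes, and the same limit applies to the Eig71E genes. The 6 became 3 without RNAi replicate 2, 4 without either larval replicate and 7 without either wild-type pupal replicate. All 9 genes for enzymes that make or degrade ecdysteroids were below the filter.

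Because ImpL2 binds insulin-like peptides, the insulin pathway was set beside it. Of 11 genes for ligands, receptors and the ligand-binding partner conv, InR and conv passed the filter, and Ilp1, Ilp4 and Ilp5 were listed at 0 in all 6 replicates. CG14059, the Ilp8 gene, stood at 0.974 and 3 FPKM in med27 RNAi pupae, against 0.316 and 0.0984 FPKM in wild-type pupae. Ilp6 stood at 1.05 and 0.651 FPKM in wild-type larvae and lower in both pupal groups. Both were below the filter and were not tested. InR, the insulin receptor gene, stood at 17.7 and 26.8 FPKM in med27 RNAi pupae, 20.9 and 21.5 FPKM in wild-type pupae and 7.51 and 4.79 FPKM in wild-type larvae. It rose by 1.66 in wild-type pupae against larvae (limma adjusted p = 0.00203), or by 0.74 after correction for transcript length (limma adjusted p = 0.0201), and differed by 0.04 between med27 RNAi and wild-type pupae (limma adjusted p = 0.913). Of 12 downstream genes, 7 rose in wild-type pupae and none fell, with a median of 0.71, and with the length trend removed 6 rose and 1 fell. The 7 that rose included the kinase genes Pdk1 (1.19, limma adjusted p = 0.00131), S6k (0.85, limma adjusted p = 0.00174) and Akt1 (0.88, limma adjusted p = 0.00223), and foxo (0.87, limma adjusted p = 0.00331), which encodes the transcription factor that insulin signalling inhibits.

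In med27 RNAi pupae 3 of the 12 downstream genes fell and none rose, with a median of -0.04, and the count was 3 without each replicate in turn. Thor, the gene of the translation repressor 4E-BP and a target of Foxo, stood at 11.5 and 8.19 FPKM in med27 RNAi pupae, against 48 and 30.6 FPKM in wild-type pupae, and fell by 1.88 (limma adjusted p = 0.00345). Pdk1 fell by 0.70 (limma adjusted p = 0.00479) and foxo by 0.82 (limma adjusted p = 0.00673). Rheb, the activator of Tor, came next at 0.18 (limma adjusted p = 0.13). Against wild-type larvae, 5 of the 12 rose in med27 RNAi pupae and 1 fell, and InR rose. The 5 became 3 without RNAi replicate 2 and 7 without larval replicate 1, and with the length trend removed 3 were higher and 2 lower.

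**Figure D5:**
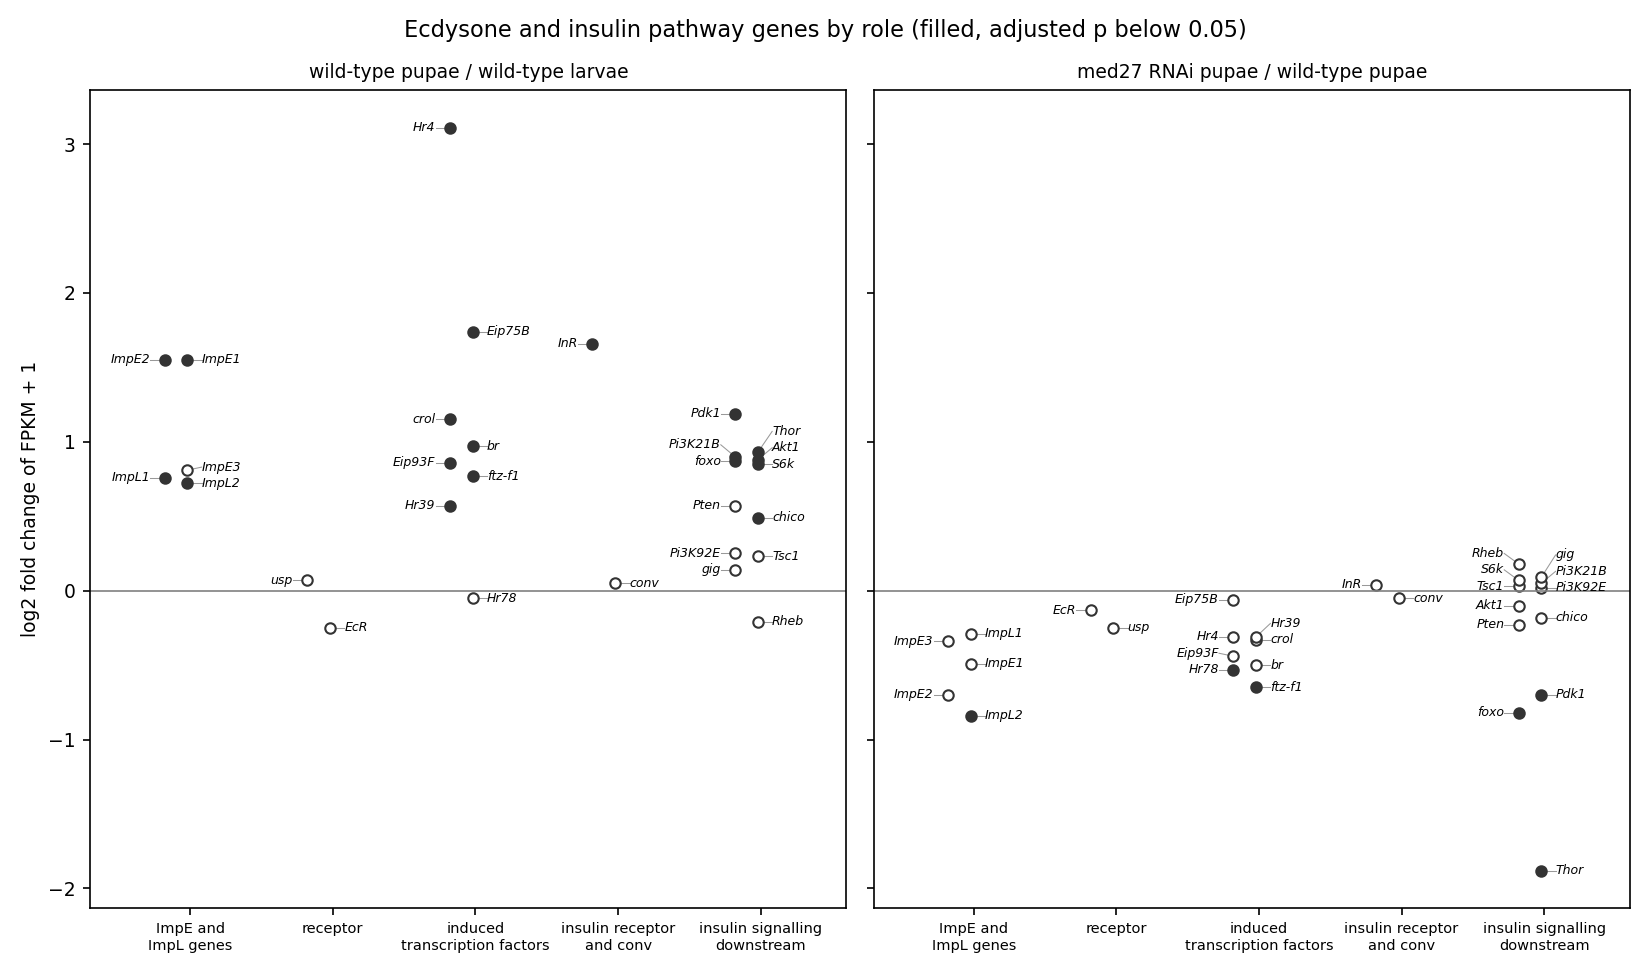
Log2 fold change of FPKM + 1 for the 5 Imp genes and for tested receptor, transcription factor and insulin pathway genes (effectors not drawn), each circle a gene, grouped by role, for wild-type pupae over wild-type larvae on the left and med27 RNAi pupae over wild-type pupae on the right. Filled circles have an adjusted p under 0.05. Hr4 is the highest on the left, at 3.11, and Thor the lowest on the right, at -1.88.

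Markers of other cell types were counted in the same libraries. Imaginal disc markers, of interest because the Imp genes were isolated from discs, summed over 8 genes to 11.2 FPKM in each med27 RNAi replicate, 9.41 and 15.5 FPKM in wild-type pupae and 4.54 and 5.19 FPKM in wild-type larvae. The 3 that passed the filter, ap, Dll and Ubx, rose in wild-type pupae, with a median of 0.80. These genes are also used in the brain. The count of 3 was 0 when wild-type pupal replicate 2 or larval replicate 2 was left out, 1 when larval replicate 1 was and 2 when either RNAi replicate was. None of the 3 passed the test in the knockdown. The 8 neuron markers summed to 52.6 and 55.8 FPKM in med27 RNAi pupae, 53.5 and 95.7 FPKM in wild-type pupae and 20 and 17.9 FPKM in wild-type larvae, and the 5 that passed the filter rose in wild-type pupae, 2 to 5 of them without each replicate in turn. None of the 5 passed the test in the knockdown (median -0.42), but 3 of the 5 were lower when wild-type pupal replicate 1 was left out (median -0.84). Some of these markers passed the filter only through their pupal values, as with Syt1 (0.756 and 0.513 FPKM in larvae) and Ubx (0.77 and 0.59). The counts of disc and neuron markers that rose are thus not independent of the filter. The part of disc or neuronal cells in the Imp differences was not tested.

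Glial markers summed to 173 and 176 FPKM in med27 RNAi pupae, 206 and 211 in wild-type pupae and 211 and 179 in wild-type larvae, with Eaat1, a glutamate transporter, at 18.6 and 18.7 FPKM in the knockdown, against 61.1 and 71.5 FPKM in wild-type pupae. Most of each sum was nrv2 (97.5 to 131 FPKM), and repo, moody, Gs2 and alrm were under 1 FPKM in all replicates. Of 5 tested glial markers loco alone passed in wild-type pupae against larvae (0.28, limma adjusted p = 0.0431), and none was higher under quantile normalization, with the length trend removed, under the replicate block or in the leave-one-out fits other than that without larval replicate 1. In the knockdown Eaat1 fell (-1.77, limma adjusted p = 0.000522) and no other glial marker was called. Gli differed by 0.63 (limma adjusted p = 0.0931), nrv2 by 0.15 (0.298) and loco by -0.04 (0.774). Under quantile normalization Gli was called higher (0.83, limma adjusted p = 0.0322), so the glial markers did not fall together. Haemocyte markers summed to 19.5 to 20.5 FPKM in med27 RNAi pupae, 28.7 to 28.8 in wild-type pupae and 32.8 to 38.3 in wild-type larvae, nearly all of it crq, with the other 6 of the 7 under 1 FPKM in all replicates. The scavenger receptor gene crq was lower in wild-type pupae than in larvae (-0.30, limma adjusted p = 0.0446), a call lost under quantile normalization, with the length trend removed, under the replicate block and in the leave-one-out fits other than that without larval replicate 2. It fell in the knockdown (-0.50, limma adjusted p = 0.0119), a call lost without RNAi replicate 2 or wild-type pupal replicate 2. Fat body markers summed to at most 2.99 FPKM, with Lsp1alpha listed at 0, and its 1 tested gene did not pass. Tracheal markers summed to 3.14 and 5.31 FPKM in med27 RNAi pupae, 5.37 and 4.78 in wild-type pupae and 14.8 and 10.1 in wild-type larvae, and 1 of 2 tested fell in wild-type pupae. All 9 markers of ring gland and neurosecretory cells, of which 3 are ecdysteroid enzymes counted above, were below the filter, with sums of 1.97 and 1.78 FPKM in med27 RNAi pupae, 0.773 and 0.34 in wild-type pupae and 0.522 and 3.99 in wild-type larvae. The part of these cells in the Imp differences was not tested either.

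By the tables' coordinates, counted from 1 in a genome build that the sources used here do not name, 4 of the genes lie on chromosome arm 3L and ImpE3 on 3R. ImpE2 (FBgn0001254) spans 3L:3510974-3512677, ImpL2 (FBgn0001257) spans 3L:4224699-4236147, ImpE1 (FBgn0001253) spans 3L:8365509-8384281 and ImpL1 (FBgn0001256) spans 3L:13375857-13377099. ImpE3 (FBgn0001255) spans 3R:3853932-3856167 and lies wholly inside CG2747, on the same strand, and overlaps the opposite-strand gene CG10903 by 35 bases. CG2747 stood at 14.8 and 15.8 FPKM in med27 RNAi pupae, 11.3 and 13.7 FPKM in wild-type pupae and 9.65 and 10.2 FPKM in wild-type larvae, several times the level of ImpE3. Its difference in the knockdown was 0.28 (limma adjusted p = 0.118) and between stages 0.30 (0.0709), and that of CG10903 was 0.22 (0.109) and -0.28 (0.0402). Fragments of ImpE3 and CG2747 can be divided in more than one way, so the ImpE3 values are uncertain. The other 4 genes overlap no listed gene.

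Nearest neighbours differed from each other. CG42324, 78 bases from ImpE2, rose by 0.93 in wild-type pupae against larvae (limma adjusted p = 0.025) and differed by 0.14 in med27 RNAi against wild-type pupae (limma adjusted p = 0.733). CG43367, 695 bases from ImpL2, rose by 0.70 in pupae (limma adjusted p = 0.00452) and differed by -0.28 in the knockdown (limma adjusted p = 0.137). Idh, the isocitrate dehydrogenase gene to the left of ImpE1, fell by 0.91 in pupae (limma adjusted p = 0.00157) and by 0.32 in the knockdown (limma adjusted p = 0.0489). Both neighbours of ImpL1 were below the filter.

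Profiles over the 6 replicates were compared by the Euclidean distance between log2(FPKM + 1) values centred on each gene's mean. Between members, ImpE2 and ImpE1 were 0.746 apart, and 2.46% of tested genes were closer to ImpE1 than ImpE2 was. ImpE2 and ImpE3 were 0.833 apart, with 1.34% of tested genes closer to ImpE2. ImpL1 and ImpL2 were 0.904 apart, with 28.3% of genes closer to ImpL1, and ImpE3 and ImpL2 were 0.943 apart, with 6.18% of genes closer to ImpE3. The other 6 pairs lay between 1.08 and 1.29 apart, among them ImpE1 and ImpE3 at 1.28, with 17.6% of genes closer to ImpE1, so that distances did not separate the early genes from the late ones. The nearest genes to ImpE1 were CG32767 (0.315), CG43444 (0.334) and Smr (0.34), and to ImpE2 they were Proct (0.471), CG11071 (0.494) and mamo (0.5). ImpE3 was nearest to ham (0.406), sea (0.481) and CG42245 (0.482). For ImpL1 the nearest were ref(2)P (0.297), DnaJ-1 (0.31) and alphagamma-element:CR32865 (0.311), all of which were higher in wild-type pupal replicate 1 than in replicate 2. For ImpL2 they were salr (0.254), Trl (0.271) and toc (0.273). The nearest of these, salr, stood at 3.51 and 3.43 FPKM in med27 RNAi pupae, 6.41 and 8.12 FPKM in wild-type pupae and 3.51 and 3.88 FPKM in wild-type larvae. Wild-type pupae alone were high, as for ImpL2. This likeness, and that of the genes nearest ImpL1, follows from the choice of genes by distance over the same replicates.

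ImpL3 shares the name but encodes lactate dehydrogenase, an enzyme of the cytosol, and was not counted among the 5. It stood at 2.21 and 3.21 FPKM in med27 RNAi pupae, 102 and 8.23 FPKM in wild-type pupae and 10.9 and 18.6 FPKM in wild-type larvae. Both knockdown values were below all others, and wild-type pupal replicate 1 stood far above the rest.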

How the data were processed

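Poly(A) RNA of sorted neuroblasts was measured, with 2 replicates a group. The authors deposited Cufflinks gene tables, 1 per run, with FPKM and its confidence bounds, per the file headers. The authors also deposited tables of comparisons with the column names of DESeq, restricted to an adjusted p-value of up to 0.01 by their values, in which base means are a normalized signal and the deposited fold change is a ratio of 2 base means, also given as log2. The authors used Cufflinks 1.3.0, DESeq 1.8.3, HTSeq, TopHat 1.4.1 and BWA 0.6.1, per the submitters' processing notes, which are given here without roles. No genome build is given in the sources used here. Libraries were made with a strand-keeping dUTP method, per the labels' protocols, but counting by strand is not stated.

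Here, technical runs (r = 0.9988 to 0.9991 between runs) were averaged as FPKM, and 1 limma model (3.58.1, R 4.3.3, mean-variance trend) of the 3 groups was fitted to log2(FPKM + 1) for 6992 genes with a mean of at least 1 FPKM. Tests were two-sided with Benjamini-Hochberg adjustment over those genes. All 5 Imp genes passed that filter, ImpE1 only through its pupal values. The members, gene lists and tests were chosen with earlier results of these data known. From each pathway list the text names at most 4 tested genes per comparison, those of smallest adjusted p, and for each Imp gene the 3 nearest profiles. Genes outside that rule were named after their values were seen. They are Eip63E and other neighbours of the Imp genes, Ilp1, Ilp4, Ilp5 and Lsp1alpha at 0, Ilp6, CG14059 and the glial markers under 1 FPKM. Fragments behind a value were inferred from the upper confidence bound, and are exact for single-transcript genes only, of which 91.8 to 93.9% of low values came within 0.02 of a whole number. Transcript lengths were taken from a later Ensembl annotation, which matched 14133 of the 14210 genes by identifier, name or synonym. The fit was tested on simulated data. Alternatives were pseudocounts of 0.1 and 5, no filter, a filter of 5 FPKM, quantile normalization, removal of the length trend, a replicate block, single technical runs, 2 groups only and leaving out each replicate.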

Additional observations from a re-analysis of the deposited data

How the results depend on the processing

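With 2 replicates a group, counts depended on single libraries and on the filter. In wild-type pupae against larvae, ImpE1, ImpE2 and ImpL2 passed in every alternative that tested them (16, 17 and 17). The count of 4 Imp genes was 2 with a filter of 5 FPKM, which left only 2 to test, 5 under the replicate block with the length trend removed, and 3 to 4 without each replicate in turn. Over all genes, the count of 3441 was 2146 with the length trend removed, 1830 with that and the replicate block, and 1917 to 3469 without each replicate in turn.

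In med27 RNAi against wild-type pupae, ImpL2 passed in 17 of 17 alternatives (-0.99 to -0.58). The count of 1 was 2, with ImpE2 added, at a pseudocount of 5, with a filter of 5 FPKM, with the length trend removed, under the replicate block, under both together and with 2 groups only. It was 1 to 2 without each replicate in turn. Over all genes, 1977 calls became 1315 with no filter and 728 to 2254 without each replicate in turn. The split of 1373 higher and 604 lower became 879 and 782 under quantile normalization and 971 and 912 with the length trend removed.

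In med27 RNAi pupae against wild-type larvae, the count of 2 was 0 with no filter, 1 with a filter of 5 FPKM, 1 with the length trend removed, with or without the block, and 0 to 2 without each replicate in turn. Over all genes, 3313 calls became 1614 to 3270 without each replicate in turn, and the split of 1947 higher and 1366 lower became 1589 and 1622 under quantile normalization and 1512 and 1586 with the length trend removed. Signs turned in 3 uncalled cases. Without each replicate in turn, ImpL1 ranged from -0.62 to 0.04 in the knockdown (0.04 without wild-type pupal replicate 1). Against larvae ImpE3 ranged from -0.08 (without larval replicate 1) to 1.02, and ImpL2 from -0.27 to 0.03 (without RNAi replicate 1). The cause was not tested. Over all kept genes, same-numbered replicates did not deviate together (r = -0.0572, -0.0256 and -0.104 for the 3 pairs of groups). Such a correlation cannot exclude that same-numbered samples were prepared together. In ImpE2, ImpE3 and ImpL2 replicate 2 was the higher in all 3 groups, though not in ImpE1 and ImpL1. Under the replicate block alone, ImpE3 passed in the stage comparison (adjusted p = 0.0402), ImpL1 did not (0.0536) and ImpE2 passed in the knockdown (0.0194), and no other call of an Imp gene changed. A fit that leaves a group with 1 sample assumes that it varies like the others. The lowest implied depth, roughly 15 fragments, was that of ImpE3 in larval replicate 1, and whether depth bears on its call was not tested.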
